A study of Rattus norvegicus with 8 samples.

Results

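Matrix metalloproteinases (MMPs), the zinc enzymes that cut collagen and other matrix proteins, and their tissue inhibitors (TIMPs) were followed in the rat Achilles tendon at rest and right after a single run. The members were the rows of the deposited expression table whose gene symbol was Mmp2, Mmp3, Mmp9, Mmp13, Mmp14, Mmp19, Timp1, Timp2, Timp3 or Timp4. All 10 genes had a row among the 15590 genes of the table, and no symbol stood on more than 1 row. They comprised 6 MMPs and the 4 TIMPs. Polyadenylated RNA was sequenced from the right Achilles tendons of 8 wild-type SD (Sprague Dawley) rats, described in the methods of the study as males of 8 to 10 weeks. Of these, 4 were killed immediately after 1 h of uphill treadmill running, urged by airflow and a mild electric stimulus (0 h post-running, 0 h p.r.), and 4 were naïve controls that kept normal cage activity (NC). The sample labels have the rats of both groups killed immediately, whereas the methods have the NC rats killed together with a group that rested for longer after its run, so running and the time of killing cannot be told apart. Libraries are numbered within a group without naming the animal, and the p-values therefore measure the spread between these libraries.

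Fibrillar collagen is opened by a small set of enzymes. Among the members, MMP13 is the collagenase that cuts the intact triple helix, MMP14 is a membrane-anchored collagenase that also activates pro-MMP2, and MMP2 and MMP9 are the gelatinases that cut denatured collagen. MMP3 is stromelysin, which cuts proteoglycans and fibronectin and activates other MMPs, and MMP19 is a secreted enzyme with broad matrix substrates. MMPs are made as inactive proenzymes, and each TIMP blocks an active enzyme by filling its catalytic cleft. TIMP2 also helps MMP14 to activate pro-MMP2, TIMP3 binds to the matrix and inhibits ADAM and ADAMTS proteases as well, TIMP1 is readily induced by cytokines and growth factors, and TIMP4 is the family member with the narrowest tissue range.

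FPKM values (fragments per kilobase of gene length, put on 1 scale across libraries) rested on 11353941 to 17903265 reads per library, recovered as whole numbers from the steps between the values of each gene. Of the 8 markers fixed for tendon cells, all had a row and none stood at 0 in any library, with summed levels of 3777 to 7451 FPKM in NC and 4154 to 7450.3 in 0 h p.r. A pair of libraries stood apart. Genes of the mitochondrial genome took 31.1% of the FPKM of NC replicate 2 against 16.3% to 21.9% elsewhere, and the 8 skeletal muscle markers with a row summed to 34999 FPKM in 0 h p.r. replicate 1 against 1059 to 15922 in the other 7 libraries. In bulk tissue, fewer cells of a type and less RNA per cell cannot be told apart.

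Between the groups, 2 of the 4 inhibitors passed the test and none of the 4 tested enzymes did. Timp1 rose and Timp4 fell after running, whereas Timp2, Timp3, Mmp2, Mmp3, Mmp14 and Mmp19 did not pass, and Mmp9 and Mmp13 lay under the filter on low values. Genes were tested if 4 or more of the 8 libraries reached an FPKM of 0.5, and a gene was called at a limma adjusted p (Benjamini-Hochberg over all tested genes) under 0.05 and a fold of at least 2. Of the 10 members 8 were tested, and 2 of them were called, 1 in each direction, where 2.70% of all 13863 tested genes were called, 1.80% as higher and 0.894% as lower. Of the 4 tested MMPs 0 were called by limma, 0 had an unadjusted limma p under 0.05 (22.6% of all tested genes did), and 0 were called by voom on the recovered reads (3.02% of all tested genes were). The 2 called members were also the only tested members whose values did not overlap between the groups, a property shared by 15.6% of all tested genes. The median log2 fold change was 0.25 over the 4 TIMPs and -0.13 over the 4 tested MMPs, against -0.0014 over all tested genes. With 8 genes this is a description of the members and no test of the family.

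**Figure D1:**
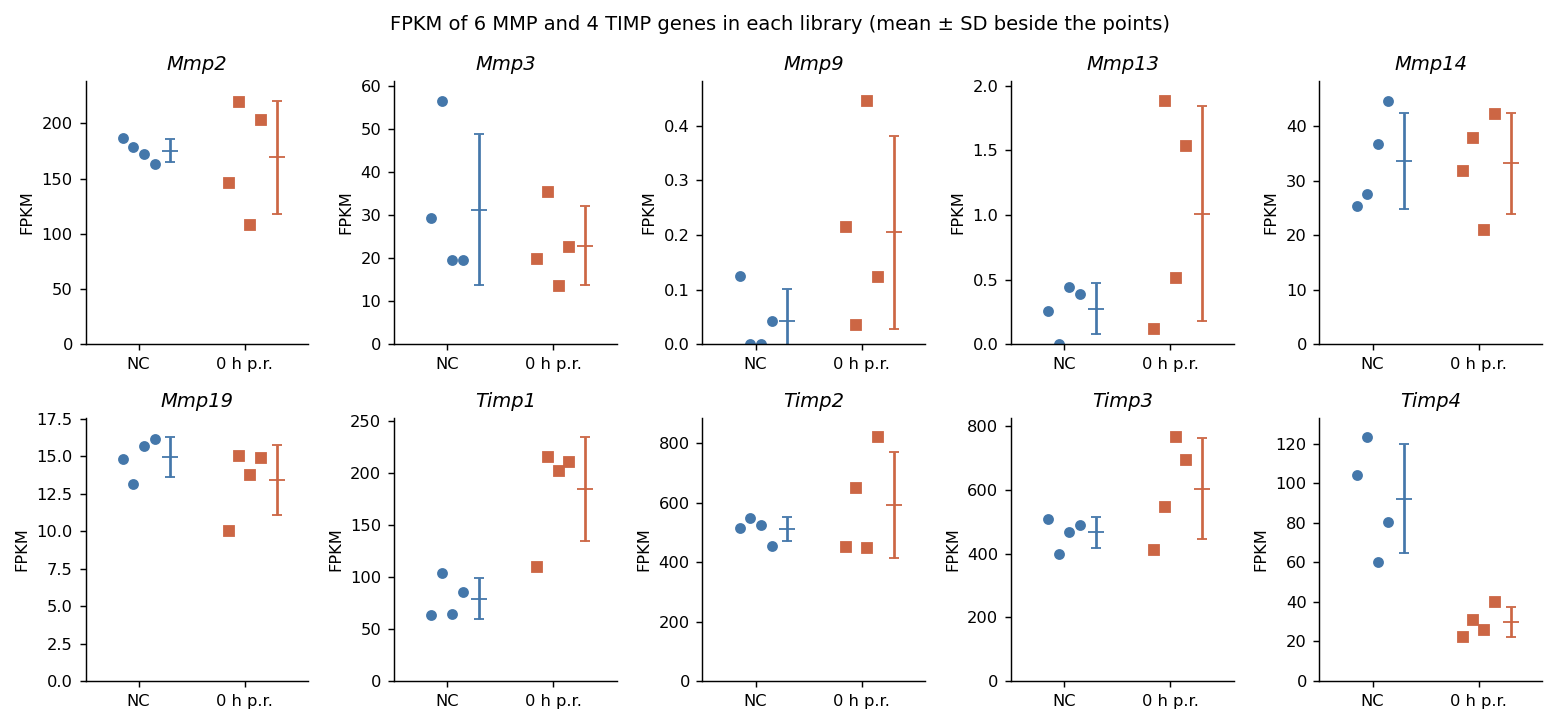
FPKM of each of the 10 genes (vertical axis, linear and from 0, a scale of its own per panel) in the 4 NC libraries (circles) and the 4 libraries of 0 h p.r. (squares), with the mean ± SD beside the points (for Mmp9 in NC the lower end of the SD lies under 0 and is not drawn). The groups stand apart for Timp1, with NC up to 104 and 0 h p.r. from 109.9, and for Timp4, with NC from 60.4 and 0 h p.r. up to 40.0, and they overlap in the other 8 panels.

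RefSeq promoters were read for the called inhibitors and, for comparison, for the stromelysin and collagenase genes of chromosome 8, whose upstream regions are textbook examples of AP-1 control. A promoter entry existed for 6 of the 10 members, and Mmp2, Mmp9, Mmp14 and Mmp19 had none. Shown are the 150 bases before the annotated start, 5′ to 3′ on the strand of the gene, in build GRCr8 of RefSeq, with matches to TGANTCA (the consensus AP-1 site) or TGAGTAA (a variant of it) in capitals, searched on both strands.
Mmp3, chr8:12925131-12925280 (+): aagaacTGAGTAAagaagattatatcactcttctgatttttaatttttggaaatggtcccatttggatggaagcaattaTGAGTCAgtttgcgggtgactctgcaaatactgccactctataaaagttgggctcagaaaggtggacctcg
Mmp13, chr8:12782679-12782828 (+): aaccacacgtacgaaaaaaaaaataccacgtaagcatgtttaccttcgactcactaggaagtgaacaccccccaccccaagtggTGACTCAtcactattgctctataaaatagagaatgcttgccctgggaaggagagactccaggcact
Timp1, chrX:3771123-3771272 (-): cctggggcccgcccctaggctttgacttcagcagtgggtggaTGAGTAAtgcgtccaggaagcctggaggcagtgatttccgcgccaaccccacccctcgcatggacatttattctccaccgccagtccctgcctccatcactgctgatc
Timp4, chr4:149985205-149985354 (-): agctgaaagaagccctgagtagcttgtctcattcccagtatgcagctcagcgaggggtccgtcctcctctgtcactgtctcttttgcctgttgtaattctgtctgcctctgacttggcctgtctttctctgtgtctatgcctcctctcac

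The consensus letters began at position -71 from the start in Mmp3 and at -66 in Mmp13, and were found in the 250 bases before the start of 6.34% of 33469 rat promoters. The variant began at -144 in Mmp3 and at -108 in Timp1, and 2.38% of the promoters held it. Mmp3 and Mmp13 also had the letters TATAAA on the strand of the gene, from -32 and -47, as did 8.06% of the promoters. Neither AP-1 motif nor TATAAA was found in that window of Timp2, Timp3 or Timp4, which says only that these letters are absent from it. Of the members with a match to either AP-1 motif, Timp1 was called, Mmp3 was tested and did not pass, and Mmp13 was under the filter.

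Timp1 (ENSRNOG00000010208), the inducible soluble inhibitor, was higher in every library after running. Its level was 62.9, 104, 64.3 and 86.0 FPKM in NC replicates 1 to 4 and 109.9, 215, 202 and 211 FPKM in 0 h p.r. replicates 1 to 4. Thus 3 of the 4 post-run libraries lay close together, while 0 h p.r. replicate 1 stood just above the highest control. The mean rose from 79.2 ± 19.4 to 184 ± 50.01 FPKM (SD, n = 4), 2.33-fold. On the log2(FPKM + 0.5) scale the fold change was 1.20 ± 0.25 (SE, 95% interval 0.62 to 1.77, limma adjusted p 0.0320). This call depended on single libraries: when each library was left out in turn, it was lost in 5 of the 8 fits, namely those without NC replicate 1 (limma adjusted p 0.0959), NC replicate 3 (0.0780), NC replicate 4 (0.0568), 0 h p.r. replicate 2 (0.104) or 0 h p.r. replicate 3 (0.0921), although the log2 fold change stayed between 1.10 and 1.43. Without NC replicate 2 it was 1.33 (limma adjusted p 0.0331), and it was 1.43 when 0 h p.r. replicate 1 was left out (0.0122). The call was also lost when every library was scaled to the same sum (log2 fold change 1.20, limma adjusted p 0.0768).

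Timp4 (ENSRNOG00000007955), the inhibitor of narrow tissue range, went the other way. NC replicates 1 to 4 held 104, 123, 60.4 and 80.6 FPKM, and 0 h p.r. replicates 1 to 4 held 22.4, 30.7, 25.6 and 40.0 FPKM. Every post-run library was therefore below every control. Its mean fell from 92.2 ± 27.5 to 29.7 ± 7.68 FPKM (SD, n = 4), to 0.322 of the NC mean. The log2 fold change was -1.60 ± 0.25 (SE, 95% interval -2.16 to -1.04, limma adjusted p 0.00915). Timp4 was called in each of the 8 fits with a library left out (limma adjusted p 0.00583 to 0.0359), including the fits lacking NC replicate 2 (log2 fold change -1.45) or 0 h p.r. replicate 1 (-1.48), and under the 10 other settings tried.

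**Figure D2:**
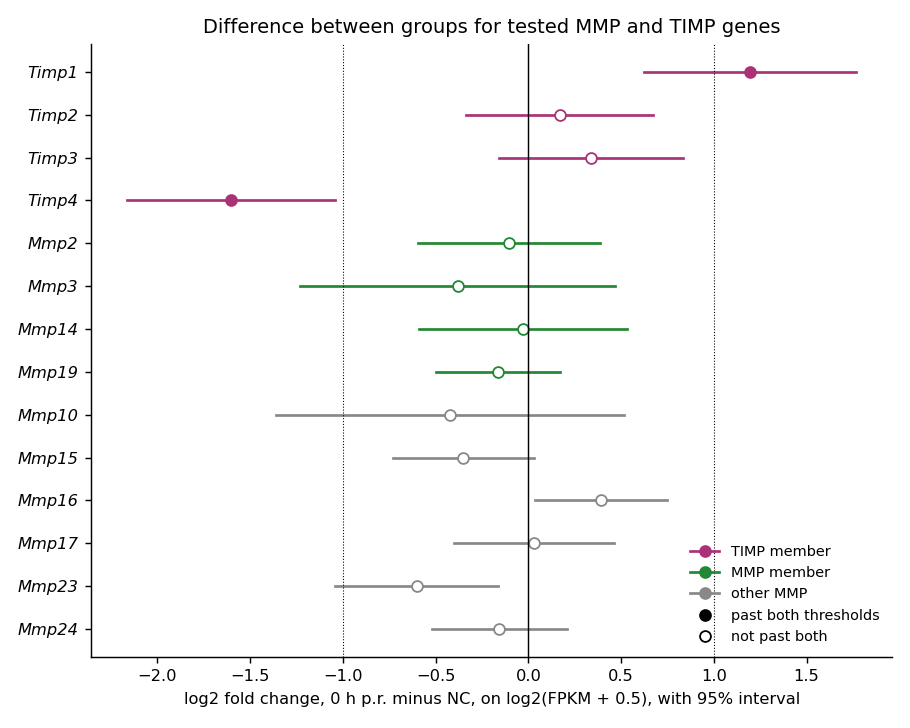
Log2 fold change of the 8 tested members and of the 6 other tested MMPs (horizontal axis, 0 h p.r. minus NC on the log2(FPKM + 0.5) scale), with the 95% interval from limma, filled where both thresholds were passed, and dotted lines at a fold of 2. Timp1 at 1.20 and Timp4 at -1.60 are the filled points, and all others lie between -0.60 and 0.39.

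Between the groups, markers of fat moved in the direction of Timp4. All 10 adipocyte markers had a row and none stood at 0 in any library, all 10 were lower in 0 h p.r., and 6 of them were called as lower, where 0.894% of all tested genes were. As the list was chosen with earlier results of these data known, this is a description and no test of the list. Their summed level was 6417, 5475, 3248 and 3151 FPKM in NC replicates 1 to 4 and 1029, 1511, 1869.6 and 2315 FPKM in 0 h p.r. replicates 1 to 4. Within the groups, both Timp4 and the fat markers were highest in NC replicates 1 and 2 and, after running, in 0 h p.r. replicate 4. The order differed elsewhere. Timp4 was higher in NC replicate 2 than in 1 and in NC replicate 4 than in 3, whereas the fat sums were the other way round. After running, Timp4 was higher in replicate 2 (30.7 FPKM) than in replicate 3 (25.6 FPKM), and the fat sum was lower. Lep and Cidec, which encode leptin and a lipid droplet protein, had the largest differences of the list (log2 fold changes -2.37 and -2.41, limma adjusted p 0.0286 and 0.0270). The part of fat tissue in the difference of Timp4 was not tested. Timp1 stood lowest among the post-run libraries in 0 h p.r. replicate 1, the library with the highest muscle markers. In 0 h p.r. replicates 2, 3 and 4 it was at 215, 202 and 211 FPKM, beside muscle sums of 5967, 15922 and 1059 FPKM. Among the controls, NC replicate 2 had both the highest muscle sum (7672 FPKM) and the highest Timp1 (104 FPKM). The part of muscle in the Timp1 values was not tested either.

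**Figure D3:**
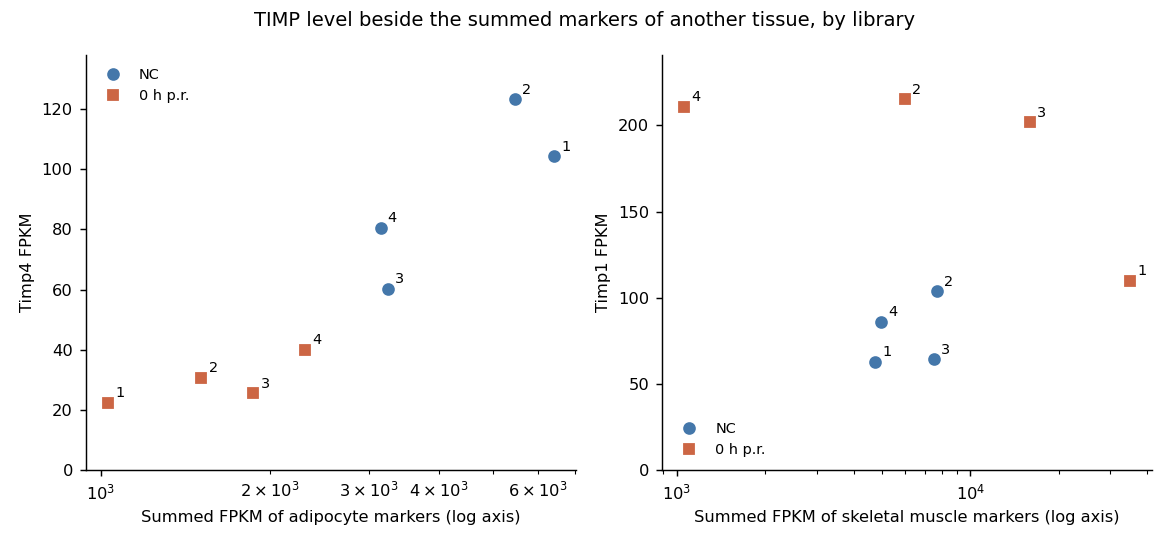
Left, Timp4 (FPKM, vertical axis) against the summed FPKM of the 10 adipocyte markers (log axis), and right, Timp1 against the summed FPKM of the 8 skeletal muscle markers (log axis), with 1 point per library, circles for NC, squares for 0 h p.r. and the replicate number beside each. Both Timp4 and the fat markers are lower in all 4 post-run libraries, and 0 h p.r. replicate 1 combines the highest muscle sum of 34999 with the lowest post-run Timp1 of 109.9. The next highest muscle sum, 15922 in 0 h p.r. replicate 3, stands beside a Timp1 of 202.

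The remaining inhibitors were the most abundant members and did not pass the test. Timp2 (ENSRNOG00000003148), which takes part in activating pro-MMP2, was at 516, 547, 526 and 456 FPKM in NC and at 452, 648, 449 and 821 FPKM in 0 h p.r., so that the post-run libraries lay on both sides of the controls. Its log2 fold change was 0.17 (95% interval -0.33 to 0.67, limma adjusted p 0.721). Timp3 (ENSRNOG00000004303), the matrix-bound inhibitor, held 509.7, 398, 468 and 491 FPKM in NC and 412, 545, 765 and 694 FPKM after running. Here 3 of the 4 post-run libraries exceeded every control, and 0 h p.r. replicate 1 did not, for a log2 fold change of 0.34 (95% interval -0.16 to 0.83, limma adjusted p 0.413). A fold of 2 lies outside both intervals, while smaller differences in either direction lie within both.

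Because FPKM is per kilobase, the levels of the inhibitors could be added. Timp2 and Timp3 together made up most of the TIMP sum in every library, so the changes of Timp1 and Timp4 altered its make-up more than its size. Timp1 supplied 5.28% to 8.84% of the TIMP sum in NC and 11.0% to 15.0% in 0 h p.r., while Timp4 supplied 5.40% to 10.5% in NC and 1.78% to 2.26% after running. The ratio of Timp1 to Timp4 FPKM was 0.603, 0.841, 1.06 and 1.07 in NC replicates 1 to 4 and 4.91, 7.01, 7.88 and 5.27 in 0 h p.r. replicates 1 to 4. Transcripts of these inhibitors were thus at a similar level in the controls, and Timp1 was the more abundant of the pair in each post-run library. This ratio follows from the 2 calls above and is a description without a test.

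**Figure D4:**
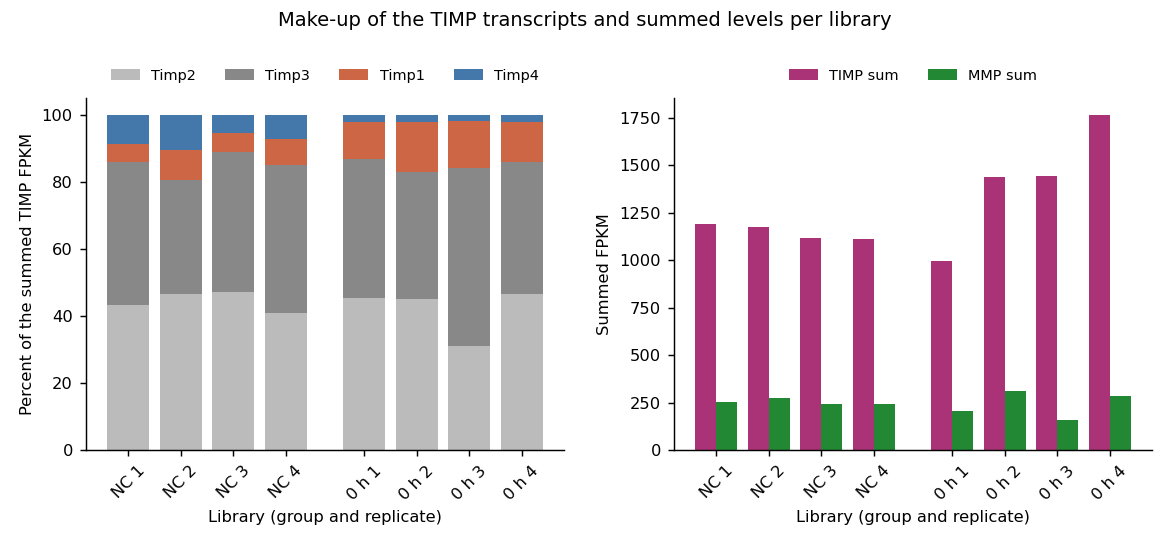
Left, share of the summed TIMP FPKM supplied by each TIMP in each library (percent), and right, summed FPKM of the 4 TIMPs and of the 6 member MMPs in each library (bars from 0). The share of Timp1 is 11.0% to 15.0% after running against 5.28% to 8.84% in NC, and that of Timp4 is 1.78% to 2.26% against 5.40% to 10.5%, while the TIMP sum spans 996 to 1765 FPKM after running around the 1113 to 1193 FPKM of NC.

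Among the enzymes, the gelatinase gene Mmp2 (ENSRNOG00000016695) was the most abundant. It held 187, 179, 173 and 163 FPKM in NC and 146, 219.8, 108 and 203 FPKM in 0 h p.r. This was 64.7% to 72.8% of the summed level of the 6 member MMPs in any library. The controls differed little from each other, and the post-run libraries spread to both sides of them. Its log2 fold change was -0.10 (95% interval -0.59 to 0.39, limma adjusted p 0.838). Mmp14 (ENSRNOG00000010947), the membrane-type activator of pro-MMP2, was at 25.4, 27.7, 36.7 and 44.8 FPKM in NC and at 31.8, 37.8, 20.9 and 42.3 FPKM after running. The ranges covered each other almost fully, and the log2 fold change was -0.03 (95% interval -0.59 to 0.53, limma adjusted p 0.964), with a sign that turned in 3 of 8 fits when single libraries were left out.

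Mmp3 (ENSRNOG00000032626), stromelysin, varied more within the groups than between them. NC replicates 1 to 4 held 29.4, 56.7, 19.6 and 19.5 FPKM, and 0 h p.r. replicates 1 to 4 held 19.7, 35.5, 13.6 and 22.7 FPKM. The highest value belonged to NC replicate 2, the library with the large mitochondrial share. The log2 fold change was -0.38 (95% interval -1.23 to 0.47, limma adjusted p 0.614) and moved to -0.05 without that library. Mmp19 (ENSRNOG00000006778), the enzyme of broad substrates, had the smallest SE of the log2 fold change among the tested members (0.15). It was at 14.8, 13.2, 15.7 and 16.2 FPKM in NC and 10.02, 15.0, 13.8 and 14.9 FPKM in 0 h p.r. Only 0 h p.r. replicate 1 lay under the lowest control, and the log2 fold change was -0.16 (95% interval -0.50 to 0.17, limma adjusted p 0.574), so a fold of 2 lies outside this interval.

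The collagenase Mmp13 and the gelatinase Mmp9 were scarcely transcribed by comparison. Mmp13 (ENSRNOG00000008478) held 0.259, 0, 0.445 and 0.387 FPKM in NC replicates 1 to 4, from 12, 0, 17 and 15 recovered reads. In 0 h p.r. replicates 1 to 4 it held 0.116, 1.89, 0.510 and 1.53 FPKM, from 4, 89, 17 and 72 reads. The values of 3 post-run libraries exceeded every control, clearly so in replicates 2 and 4, while 0 h p.r. replicate 1 was lower than 3 of the controls. Controls averaged 0.273 ± 0.198 FPKM and post-run libraries 1.01 ± 0.834 FPKM (SD, n = 4). The difference of the mean log2(FPKM + 0.5) values was 0.81, with a two-sided exact permutation p of 0.2, where the smallest p for 4 against 4 libraries is 0.0286. With 0.1 or 1 added to the FPKM in place of 0.5, the difference was 1.37 or 0.57 (exact permutation p 0.2 for both). When the filter was dropped, the limma adjusted p was 0.305 (95% interval of the log2 fold change -0.13 to 1.75). Leaving out 0 h p.r. replicate 1 removed the only post-run value that lay under any control, so the groups no longer overlapped. The exact permutation p of that fit, 0.0286 at a difference of 1.18, is the smallest that design allows. It follows from that removal and is no support for a difference. Leaving out 0 h p.r. replicate 2 gave a difference of 0.53 (exact permutation p 0.371). The remaining fits with a library left out gave differences of 0.60 to 0.94 (exact permutation p 0.2 to 0.343).

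**Figure D5:**
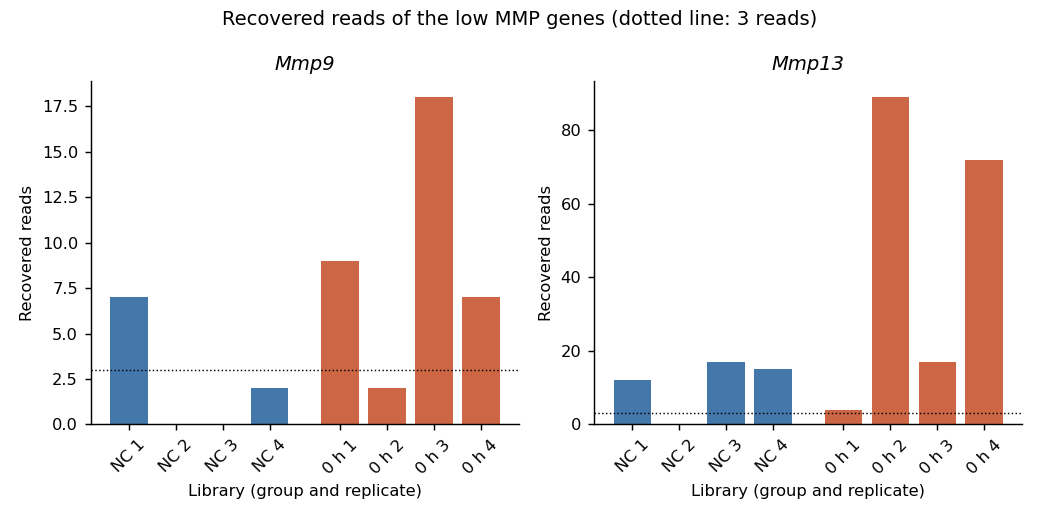
Recovered reads (bars from 0, a scale of its own per panel) of Mmp9 and Mmp13 in each library, with a dotted line at the floor of 3 reads. Mmp13 reaches 89 and 72 reads in 0 h p.r. replicates 2 and 4 and at most 17 in the other 6 libraries, and Mmp9 has at most 18 reads in any library.

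Markers of mineralised tissue were set beside Mmp13. The 8 bone markers summed to 24.7, 15.8, 27.1 and 64.9 FPKM in NC replicates 1 to 4 and to 80.2, 136, 61.1 and 199.9 FPKM in 0 h p.r. replicates 1 to 4. All 7 that were tested were higher after running, 6 of them with an unadjusted limma p under 0.05 (22.6% of all tested genes), and limma called 0 and voom 1, while Bglap and Sp7, which encode osteocalcin and osterix, were at 0 in at least 1 NC library. Of the 9 cartilage markers, 8 had a row, and these summed to 42.9, 15.6, 75.1 and 84.5 FPKM in NC and to 148, 241, 56.5 and 290.2 FPKM in 0 h p.r. Of the 5 that were tested, 4 were higher, 3 had an unadjusted limma p under 0.05, against the same 22.6% of all tested genes, and neither limma nor voom called any, while Col10a1, the collagen of hypertrophic cartilage, was at 0 in at least 1 NC library. Both sums were highest in 0 h p.r. replicates 2 and 4, the libraries with the most Mmp13, and both were lowest in NC replicate 2, where no Mmp13 read was found. In 0 h p.r. replicate 1, by contrast, both sums exceeded every control while Mmp13 had only 4 reads, and in 0 h p.r. replicate 3 both sums lay within the range of NC. The part of bone and cartilage in the Mmp13 values was not tested.

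Mmp9 (ENSRNOG00000017539), the gelatinase of neutrophils, macrophages and osteoclasts, was at 0.125, 0, 0 and 0.0427 FPKM in NC replicates 1 to 4, from 7, 0, 0 and 2 reads. In 0 h p.r. replicates 1 to 4 it was at 0.215, 0.0350, 0.446 and 0.123 FPKM, from 9, 2, 18 and 7 reads. The groups overlapped, the highest value was that of 0 h p.r. replicate 3, and 7 of the 8 values rested on fewer than 10 reads. For the NC libraries without a read, a floor of 3 reads allows up to 0.0961 FPKM in replicate 2 and 0.0649 in replicate 3, counting error only. The difference of the mean log2 values was 0.35 (two-sided exact permutation p 0.143), and without the filter the limma adjusted p was 0.304. Of 7 neutrophil markers only 2 had a row, with a summed level of 1.29 to 3.72 FPKM in NC and 1.37 to 2.17 in 0 h p.r., of which S100a9 was called higher and Mpo lower (1.80% and 0.894% of all tested genes). The sums of 8 macrophage markers (352 to 719 FPKM in NC, 433 to 1029 in 0 h p.r.) and of the 3 osteoclast markers with a row (68.9 to 105 and 54.1 to 107) overlapped between the groups, and none of these markers was at 0 in any library. Most of the osteoclast sum was Ctsk (means 69.2 and 71.3 FPKM). Acp5 was lower in every post-run library (9.63 to 13.8 FPKM in NC, 6.89 to 9.04 in 0 h p.r., log2 fold change -0.57, limma adjusted p 0.0607). The unadjusted limma p was under 0.05 for 1 of 2 tested osteoclast and 1 of 8 macrophage markers (22.6% of all tested genes). Neither limma nor voom called any of them.

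On the per-length scale, the order of the members in NC ran Timp2, Timp3, Mmp2, Timp4, Timp1, Mmp14, Mmp3, Mmp19, Mmp13 and Mmp9, from 511 ± 39.3 to 0.0419 ± 0.0589 FPKM (SD, n = 4). Neighbours whose ranges overlapped were Timp2 and Timp3, Timp4 and Timp1, Mmp14 and Mmp3, and Mmp13 and Mmp9. After running the order was Timp3, Timp2, Timp1, Mmp2, Mmp14, Timp4, Mmp3, Mmp19, Mmp13 and Mmp9. Timp4 thereby went from just above Timp1 to a place between Mmp14 and Mmp3, and Timp1 came to lie beside Mmp2. In 0 h p.r. the ranges of neighbours did not overlap between Timp2 and Timp1, between Mmp2 and Mmp14, and between Mmp19 and Mmp13, and they did overlap at every other step.

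The inhibitor transcripts outweighed those of the enzymes in every library. The summed FPKM of the 6 MMPs had a mean of 256 ± 15.1 in the controls and 240.0 ± 70.1 after running, and that of the 4 TIMPs of 1149 ± 39.5 and 1411 ± 316 (SD, n = 4). Their ratio, MMP to TIMP, was 0.215, 0.236, 0.219 and 0.219 in NC replicates 1 to 4 and 0.209, 0.215, 0.109 and 0.161 in 0 h p.r. replicates 1 to 4. The ratios of the groups were next to each other without overlapping, with 0.2155 in the lowest control and 0.2154 in the highest post-run library. The mean log2 ratio was -2.17 ± 0.06 in the controls and -2.58 ± 0.45 after running (SD, n = 4), a difference of -0.41 that shrank to -0.20 without 0 h p.r. replicate 3. As a sum over chosen members, the ratio was given no test, and it counts transcripts, not active enzyme.

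Other genes of the protease system were read from the same fit. Of 17 other MMPs looked for, 8 had a row, 6 were tested and 0 were called by limma or by voom, 2 of them with an unadjusted limma p under 0.05, where 22.6% of all tested genes had one. The smallest p belonged to Mmp23, a membrane-bound MMP (mean 15.1 ± 2.22 FPKM in NC and 9.95 ± 2.64 after running, with SD over 4 libraries, a log2 fold change of -0.60 and a limma adjusted p of 0.106). Mmp10, a second stromelysin, chosen after its values were seen, had the same outlying library as Mmp3, with 11.9 FPKM in NC replicate 2 against 2.36 to 4.63 in the other libraries. Of 13 activators and control proteins, 9 were tested, 3 had an unadjusted limma p under 0.05, and 1 was called by limma and 1 by voom, where limma called 2.70% of all tested genes. The gene called by limma was Cd44, the hyaluronan receptor that can hold MMPs at the cell surface, whose mean rose from 17.6 ± 2.36 FPKM in NC to 39.5 ± 8.36 FPKM (SD, n = 4), with a log2 fold change of 1.13 and a limma adjusted p of 0.00817. It was at 18.1, 14.3, 18.1 and 19.8 FPKM in NC and at 34.6, 48.7, 44.05 and 30.6 FPKM after running, so every post-run library lay above every control. The call of Cd44 held whichever of the 8 libraries was left out (limma adjusted p 0.00471 to 0.0313) and was lost when every library was scaled to the same sum (log2 fold change 1.14, limma adjusted p 0.0928).

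Lists for other routes of matrix breakdown held no called gene. Neither limma nor voom called a gene of them, and the unadjusted limma p was under 0.05 for 2 of 7 ADAM proteases, 0 of 7 tested genes for collagen breakdown and uptake outside the MMPs, and 4 of 9 substrates, beside 22.6% of all tested genes. Among the ADAM proteases Adam12 had the smallest p (log2 fold change -0.64, limma adjusted p 0.132), and among the breakdown genes it was Fap, a fibroblast surface protease (-0.38, limma adjusted p 0.374). Among the substrates Acan, the aggrecan core protein, had the smallest p (mean 15.8 ± 11.4 FPKM in NC and 63.5 ± 46.3 after running, with SD over 4 libraries, a log2 fold change of 2.06 and a limma adjusted p of 0.0998), with groups that overlapped. The median log2 fold change was -0.25 over the other MMPs, -0.09 over the ADAM proteases, -0.02 over the breakdown genes, 0.50 over the activators and control proteins, and 0.68 over the substrates.

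Each TIMP gene overlaps another gene, which bears on how reads were assigned. In the RefSeq annotation of GRCr8, Timp1 overlaps Syn1, Timp3 overlaps Syn3, Timp4 overlaps Syn2 and Timp2 overlaps Cep295nl. Whether the counting used strand was not given in the sources used here, so reads of overlapping genes may have been shared or dropped. Syn1 had 5 to 17 reads and Syn3 4 to 11 reads in any library, few beside the reads of Timp1 (698 to 2890) and Timp3 (6900 to 21914). Syn2, a synapsin gene, had 134, 58, 92 and 94 reads in NC and 29, 35, 30 and 84 in 0 h p.r., a log2 fold change of -0.97 (limma adjusted p 0.0336) in the direction of Timp4, which had 1507 to 3157 reads in NC and 506 to 1228 after running. Syn2 did not pass both thresholds in this fit, and its log2 fold change ran from -0.78 to -1.30 over the other settings tried. It passed both with a pseudocount of 0.1 (-1.23, limma adjusted p 0.0378), array weights (-1.11, limma adjusted p 0.00528) and voom (-1.30, voom adjusted p 0.0296). Leaving out 0 h p.r. replicate 4 also took it past both (-1.17, limma adjusted p 0.00532). Its limma adjusted p was over 0.05 in the other 7 of the 8 fits lacking a library (up to 0.105). It was also over 0.05 with all libraries at the same sum (0.165). The part of shared reads in the difference of Syn2 was not tested. No MMP member overlapped another gene in that annotation.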

How the data were processed

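Per the methods of the study and the submitters' processing notes, the authors aligned stranded polyA reads with HISAT2 2.1.0 to Rnor_6.0, counted them and took gene lengths with featureCounts 1.6.3, and normalised and compared the groups with DESeq2 1.30.1. The deposited table held FPKM values for the 8 libraries, scaled between libraries, since their sums ranged from 554130 to 900138 while the median ratio to the gene means ranged from 0.971 to 0.977. It also held the authors' own log2 fold changes, p-values and adjusted p-values of 0 h p.r. against NC, 3 deposited columns that were not used.

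Because FPKM values are not counts, log2(FPKM + 0.5) was fitted with limma 3.58.1 (lmFit, eBayes with a trend, two-sided, no covariate) in R 4.3.3. Filter, adjustment and thresholds are given with the results. For members under the filter, all 70 assignments of the libraries to the groups gave an exact permutation p, in Python 3.11.15 with numpy 2.4.6. Reads recovered as whole numbers (100% of 15590 genes, tolerance 0.02 of a read) gave depth, a median of 218 reads per gene and library. Intervals of fold changes rest on the spread between libraries, and the floor of 3 reads covers counting error only. No pair of libraries of a group agreed within sampling noise (lowest chi-square per gene 27.2). Reads were also simulated for 8 libraries of these depths, with 200 genes changed 4-fold (13903 genes fitted). Of the 199 changed genes tested, 99.5% were called, and 1.49% of the calls were unchanged genes. In the simulation every gene had the same fixed relative spread between libraries. All libraries shared the same mean profile apart from the planted changes, which were placed in genes with more reads. It therefore checked the steps of the fit and does not give the power or the share of false calls in these data.

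Group and number of each library came from the sample titles. The members and all gene lists were chosen with earlier results of these data known. All 10 members are named, with every called gene of a protease list, or the one with the smallest p where none was called. The cell type markers that are named were chosen after their values were seen. Alternatives comprised other pseudocounts (0.1, 1), other filters (none, or a mean FPKM from 2 upwards), other scalings, a replicate block, array weights, voom on recovered reads, the adjusted p alone and leaving out each library. Those for Cd44, Mmp23, Adam12, Fap, Acan and Syn2, and leaving out libraries for the MMP to TIMP ratio, were chosen after seeing the data. Positions of the genes in Rnor_6.0 were not used here.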

Additional observations from a re-analysis of the deposited data

Results flagged for a closer look

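Of 20 groups of 4 libraries (10 members in NC and in 0 h p.r.), 1 held a library far from the rest of its group, and chance alone marks about 1 in 20 such groups. Timp1 in 0 h p.r. replicate 1 was at 109.871 FPKM, the lowest of its group, whose highest value was 215 FPKM, and on the log2(FPKM + 0.5) scale its gap to the next library took 0.903 of the range of the group, above the 95% critical value of Dixon for 4 samples. That library also had the highest summed skeletal muscle markers (34999 FPKM), whose part in the value was not tested. In 0 h p.r. replicate 3, with the next highest muscle sum (15922 FPKM), Timp1 was at 202 FPKM.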

How the results depend on the processing

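Timp4 was called under every alternative that was run, and no called member changed sign. Timp1 was called under 9 of 10 other settings and in 3 of 8 fits with a library left out. The 2 called members became 1 with every library scaled to the same sum (TPM scaling, where Timp1 was lost), and leaving out single libraries gave 1 to 2 called members. Over all tested genes, 374 were called in the fit reported, 171 with TPM scaling, 793 by the adjusted p alone, and 195 to 516 with single libraries left out. Cd44 was no longer called with TPM scaling or with the replicate block (log2 fold changes 1.14 and 1.13, limma adjusted p 0.0928 and 0.0531), and the cause was not tested. Signs of uncalled members turned in 3 fits for Mmp14, 1 for Mmp2 and 1 for Timp2. Same-numbered libraries of the groups did not deviate together (correlations -0.141, -0.0708, 0.0717 and 0.0056), so the numbers do not pair them. With the replicate number as a block, 212 genes were called and both Timp1 (limma adjusted p 0.0367) and Timp4 (0.0330) remained so. Syn2 had a limma adjusted p of 0.0942 with that block, at the log2 fold change of -0.97 found without it. The difference of the log2 MMP to TIMP ratio ranged from -0.53 to -0.20 with single libraries left out. Depth limits Mmp9 and Mmp13, with at most 18 and 89 reads in a library.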

Other observations

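Some genes followed single members closely across the 8 libraries. By Pearson's r of the log2(FPKM + 0.5) values, the gene most like Timp1 was Thoc1 (r = 0.994), which encodes a subunit of the mRNA export complex THO, followed by Morf4l2 (0.986). Timp4 was followed most closely by Sult1a1 (0.993), a phenol sulfotransferase, then Cdkn2aipnl (0.990), Ttll1 (0.985), Cav2 (0.983) and Med9 (0.981). The level of Sult1a1 was 215 FPKM in NC and 78.3 FPKM in 0 h p.r. on average, in the direction of Timp4. For Mmp3 the closest gene was Sox15 (0.961) and for Mmp14 it was Alg2 (0.946), with the sheddase gene Adam17 next (0.942). These are the highest of 13863 tested genes over 8 libraries that share the group difference and the deposited scaling, and they are given as a description without a test.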
